A study of Rattus norvegicus with 96 samples.

Results

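Rats that drank only water were compared at 2 of the study's time points, in the shell of the nucleus accumbens. The members are 5 arrays labelled 24 h and 7 arrays labelled 1 h, 12 of the 96 arrays of the series, chosen by their labels alone and not by any measured value. All animals were P rats, a line bred for high voluntary alcohol intake, and both groups are labelled as having had no ethanol. The hours are those since the last drinking episode of the experiment, which for these animals was not one of ethanol. The 24 h group is therefore P rat, water, 24 h, and the 1 h group is P rat, water, 1 h; the labels name no transgene, drug or diet that separates them, and no age or sex. The question that the comparison answers is how much expression in the accumbens shell differed between collection times in animals without ethanol, which is the background of any time course in the drinkers.

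The accumbens shell is a ventral part of the striatum that receives dopamine from the midbrain and excitatory input from cortex, hippocampus and amygdala. Its principal cells are GABA-releasing medium spiny neurons, which carry either the D1 or the D2 dopamine receptor. Neurons of this region switch on activity-dependent transcription factor genes after unfamiliar or rewarding events, and the region, like most tissues, holds a molecular clock whose transcripts rise and fall over the day.

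RNA was extracted from the dissected region, amplified from 25 ng of total RNA in a 2-cycle protocol and read on Affymetrix rat arrays with 31099 probe sets. The other groups used below were 5 arrays of water rats at 6 h, 10 and 11 arrays of ethanol-drinking P rats at 1 h and 24 h, and 6 and 6 arrays of the central nucleus of the amygdala from water rats at 1 h and 24 h. The labels do not say whether each array comes from a separate rat, so p-values measure the spread between these arrays, which may be partly technical. Of 13 medium spiny neuron markers tested, 10 read higher in all 12 accumbens arrays than in all 12 amygdala arrays of water rats. Drd1 was higher by 2.56 and Rgs9 by 2.90 on the log2 scale. So were 2 of 7 cortical glutamatergic, 1 of 6 septal, pallidal and hypothalamic, and 1 of 2 choroid plexus and ependyma markers in all arrays. The share over all probe sets is not given here. A comparison with the amygdala does not tell the shell from other parts of the striatum. Median correlations of an array with the other accumbens arrays were 0.9916 to 0.9943 at 1 h and 0.9901 to 0.9939 at 24 h, so that 1 array of the 24 h group, number 31, stood lowest in both groups.

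No probe set passed the test between 24 h and 1 h. Of 18625 probe sets above the filter on low signal, 0 had an adjusted p under 0.05 (0% called) in limma's moderated test, and the smallest adjusted p was 0.827. At an unadjusted p under 0.05, 1098 probe sets (5.90%) were counted, 340 higher at 24 h (1.83%) and 758 lower (4.07%). The change was below 0 for 49.9% of the probe sets tested and above 0 for 50.1%, and its median was 0.00 on the log2 scale. The median standard error of a change was 0.113, and the 95% interval lay wholly within 0.5 of 0 for 83.7% of probe sets and within 1 of 0 for 99.0%. Changes of more than 0.5 in size were thus outside the interval for most probe sets. Whether a smaller change was inside it depended on the probe set. The arrays of the groups did not overlap at all for 119 probe sets (0.639%), 42 with every 24 h array higher (0.226%) and 77 with every 24 h array lower (0.413%). The count at an unadjusted p under 0.05 depended on single arrays: it was 616 without array 31 of the 24 h group and 642 without array 18 of the 1 h group.

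Since none passed, the 12 genes with the smallest unadjusted p in each direction are given as a description of the largest differences relative to their error, and each had an adjusted p of 0.827. Changes of the 12 higher at 24 h ran from 0.23 to 0.36 on the log2 scale and those of the 12 lower were 0.25 to 0.67 in size. The genes do not belong to a single process. Among the 12 higher were Casq2, a calcium-binding protein of the sarcoplasmic and endoplasmic reticulum, Pcf11, a factor of pre-mRNA cleavage and transcription termination, Hic1, a transcriptional repressor, Med27, a subunit of the Mediator complex, and Prc1, a microtubule-bundling protein of dividing cells. Mettl25b, Rab7b, Mex3a, Susd6, Prrc2b, Cacnb1 and Mycl completed the 12, with changes of 0.26, 0.24, 0.25, 0.24, 0.23, 0.25 and 0.27.

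Casq2 read 6.88 at its lowest, 7.03 at the median and 7.20 at its highest in the 1 h arrays, and 7.22, 7.25, 7.32, 7.34 and 7.52 in the 24 h arrays. All 5 of the 24 h arrays lay above all 7 of the 1 h arrays, though the nearest pair almost touched, and the change was 0.32 ± 0.09 (SE). The Casq2 mean was 7.01 at 1 h, and 7.06 in ethanol-drinking rats at 1 h. Both lie under the log2 limit of 7.09 of the filter on low signal, so Casq2 read near the floor of the probe sets tested. Pcf11 read 9.22, 9.35 and 9.56 (lowest, median, highest) at 1 h, and 9.62, 9.67, 9.74, 9.80 and 9.87 at 24 h, again without overlap and with a change of 0.36 ± 0.12. Prrc2b was the remaining gene of the 12 whose arrays did not overlap, from 7.32 to 7.48 at 1 h and from 7.50 to 7.75 at 24 h. Over all probe sets tested, 0.226% had every 24 h array higher, and these 12 were chosen by their p on the same arrays. Hic1 came close to separation: its 1 h arrays ran from 7.18 to 7.67 around a median of 7.37, and its 24 h arrays read 7.67, 7.68, 7.70, 7.81 and 7.85. Prc1 differed from these in resting on 1 array. Its 24 h values were 7.08, 7.15, 7.17, 7.34 and 8.35 against 6.93 to 7.34 at 1 h, and its change of 0.36 ± 0.12 became 0.13 without array 32. Prc1 too read near the floor, with means of 7.06 at 1 h and 7.07 in ethanol-drinking rats at 1 h and at 24 h.

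Among the 12 lower at 24 h were genes of RNA and protein synthesis and breakdown, of lipid and cofactor synthesis, and of the cell membrane. Snd1, a nuclease-domain protein that binds RNA and belongs to the RNA-induced silencing complex, had the smallest p of all named genes (unadjusted p = 1.06e-04). It read 9.36, 9.50 and 9.74 (lowest, median, highest) at 1 h and 8.99, 9.18, 9.23, 9.29 and 9.48 at 24 h, a change of -0.29 ± 0.07. The groups overlapped through 1 of the 24 h arrays, which lay near the median of the 1 h arrays. Cav1, the coat protein of caveolae and abundant in endothelial cells, had the largest change of the 24 named genes, -0.67 ± 0.19. Its 1 h arrays ran from 7.56 through a median of 7.79 to 8.13, and its 24 h arrays read 6.33, 7.01, 7.13, 7.44 and 7.63, so that the lowest array lay far under the rest and the highest lay within the 1 h range. The 24 h mean of 7.11 lay near the log2 limit of 7.09 of the filter on low signal.

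In 6 of the 12 lower genes every 24 h array lay under every 1 h array (0.413% of all probe sets tested). The 12 were chosen by their p on these same arrays, so this count follows from the choice and only describes them. Mrto4, which acts in assembly of the large ribosomal subunit, read 8.12 to 8.48 at 1 h and 7.90, 7.92, 8.01, 8.01 and 8.10 at 24 h. Sgms1, a sphingomyelin synthase of the Golgi, read 7.68 to 8.04 at 1 h and 7.41, 7.46, 7.46, 7.52 and 7.55 at 24 h. Mocs2, an enzyme of molybdenum cofactor synthesis, read 10.90 to 11.28 at 1 h and 10.31, 10.62, 10.72, 10.78 and 10.80 at 24 h. Their changes were -0.27 ± 0.07, -0.38 ± 0.10 and -0.40 ± 0.11. Psmd8, a subunit of the regulatory particle of the proteasome, read 9.72 to 10.03 at 1 h and 9.39 to 9.71 at 24 h, a change of -0.31 ± 0.09. Gpatch4 and Tmem276 were the other non-overlapping genes, at -0.25 ± 0.07 and -0.50 ± 0.15. Rbbp5, a shared subunit of histone methyltransferase complexes, Cdc123, an assembly factor of a translation initiation complex, Agfg1, and Pank2, the first enzyme of coenzyme A synthesis in mitochondria, had changes of -0.33, -0.54, -0.49 and -0.47 with overlapping arrays.

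The 6 h arrays had a mean between the 1 h and 24 h means for 12 of the 12 higher and 12 of the 12 lower genes. Casq2, for example, averaged 7.01 at 1 h, 7.19 at 6 h and 7.33 at 24 h, and Cav1 averaged 7.78, 7.34 and 7.11. The genes were chosen for their difference between 24 h and 1 h, so a 6 h mean between those means was likely from the choice alone. The 6 h and 24 h changes also share the 1 h arrays, so they are set side by side and not counted as support. Between 6 h and 1 h, 0 probe sets passed (0% called, 4.20% at an unadjusted p under 0.05), and between 24 h and 6 h 0 passed (0%, and 1.43% unadjusted).

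Other probe sets for the named genes mostly shared the sign but read closer to 0: 17 further ones were tested, for 11 of the genes, and 13 had the sign of the named probe set. Gpatch4 had further probe sets at -0.34 ± 0.13, -0.15 ± 0.13 and -0.03 ± 0.13, and Mrto4 had one at -0.19 ± 0.09. Pank2 had one at -0.20 ± 0.12 and Rbbp5 one at -0.07 ± 0.07. Tmem276 had 3 more, at -0.08 ± 0.09, -0.06 ± 0.09 and -0.14 ± 0.10. Cav1 had a second probe set at -0.13 ± 0.12, with a higher mean signal of 10.40 over the accumbens arrays. Agfg1 had 2 more at -0.11 ± 0.09 and 0.00 ± 0.11. Prrc2b, named as higher, had probe sets at 0.14 ± 0.08 and -0.34 ± 0.19, Mex3a had one at 0.03 ± 0.07, Susd6 one at -0.12 ± 0.08 and Cacnb1 one at -0.04 ± 0.13. Among the 2370 genes with several tested probe sets, 404 probe sets were at an unadjusted p under 0.05, with a median change of 0.305 in size. Set beside each of them, the 587 pairings with a further probe set of the same gene had a median of 0.04 in the same direction, 347 (59.1%) with the same sign and 54 at an unadjusted p under 0.05 as well.

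A control measure of the Gapdh transcript moved with the comparison, while those of other control transcripts did not move the same way. Affymetrix arrays carry control probe sets for the 3' and 5' ends of reference transcripts, and the difference in signal between the ends grows where the labelled RNA falls short of the 5' end. For Gapdh the 3' minus 5' difference was 1.51 at its lowest, 1.61 at the median and 1.74 at its highest in the 1 h arrays, and 1.56, 1.94, 2.10, 2.12 and 2.32 in the 24 h arrays. In 4 of the 5 24 h arrays it was above every 1 h array, and the group means were 1.62 ± 0.08 and 2.01 ± 0.29 (SD, n = 7 and 5). The difference of 0.387 had an exact permutation p of 0.0088 over all splits of the 12 arrays (two-sided, adjusted p = 0.0909 over the 16 array and marker measures compared). The 6 h arrays averaged 2.00, like those at 24 h, and in ethanol-drinking rats the same interval gave a difference of 0.0958. The other control transcripts did not share the direction. Beta-actin's end difference was 3.08 at 1 h and 3.03 at 24 h (exact permutation p = 0.734), and that of hexokinase was lower at 24 h, 2.38 against 2.71 (exact permutation p = 0.0114, adjusted p = 0.0909). Array 31, lowest in correlation with the rest, had the highest Gapdh end difference of the 12 arrays.

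**Figure D1:**
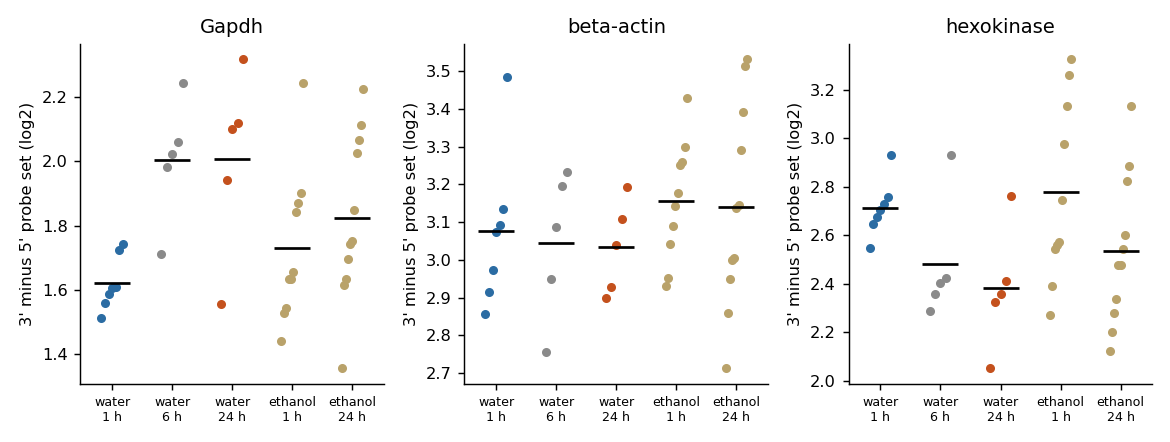
Difference in log2 signal between the 3' and 5' control probe sets of Gapdh, beta-actin and hexokinase (y axis, a separate scale for each panel that does not start at 0) in each accumbens array, grouped by treatment and time and drawn in order of value; bars are group means. The Gapdh panel shows 1.51 to 1.74 in the 1 h water arrays and 1.94 to 2.32 in 4 of the 5 24 h water arrays, with the ethanol groups spread over both ranges.

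The slope of each probe set on the Gapdh end difference was estimated in the 36 accumbens arrays outside the comparison, with group means removed. Over the 18625 probe sets, that slope correlated with the 24 h minus 1 h change of water rats with Pearson r = 0.691 and Spearman rho = 0.621, a description over probe sets that are not independent. All 12 named higher genes had a positive slope (median 0.15, against 54.9% positive over all tested), and all 12 named lower genes had a negative one (median -0.43, against 45.1% negative). Cav1 had a slope of -1.08 and Pcf11 one of 0.45, whereas the slope of Casq2 was 0.00. With the Gapdh end difference as a covariate, 0 probe sets passed and 496 were at an unadjusted p under 0.05, and the changes without and with the covariate correlated with r = 0.376 over probe sets. With it Casq2 read 0.33 ± 0.10, Prc1 0.32 ± 0.13 and Snd1 -0.22 ± 0.07, while Cav1 read -0.23 ± 0.13 and Agfg1 -0.20 ± 0.10. With the beta-actin end difference as the covariate instead, 0 probe sets passed and 1138 were at an unadjusted p under 0.05. Covariate values of genes and lists below are for Gapdh alone. The Gapdh end difference itself differed between the groups, so its part in a change was not tested beyond these values.

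**Figure D2:**
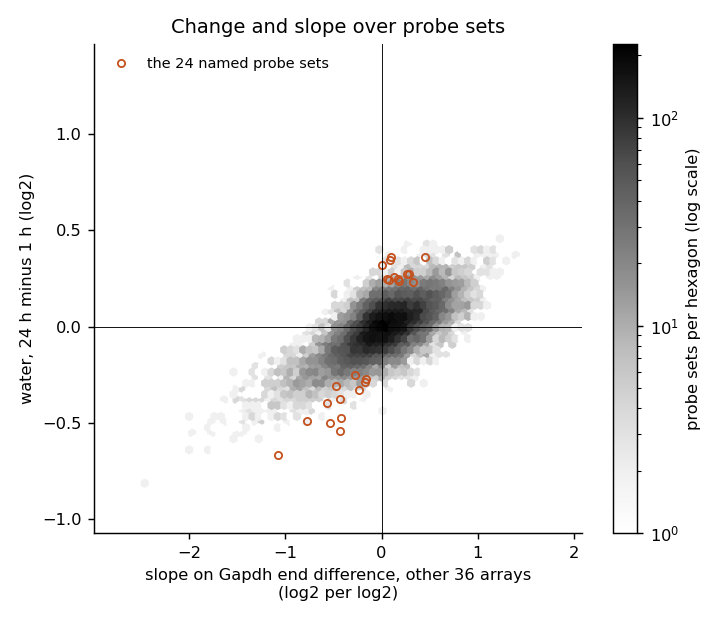
Each hexagon counts probe sets (log grey scale) by their slope on the Gapdh end difference in the 36 other accumbens arrays (x axis, log2 per log2) and their 24 h minus 1 h change in water rats (y axis, log2); circles are the 24 named probe sets. The cloud runs from lower left to upper right, with r = 0.691 over 18625 probe sets.

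Some genes had 1 probe set with a large change beside others near 0, and the following were chosen after their values were seen. Eif4g2, a translation initiation factor, had a probe set that read 8.63, 9.03 and 9.58 (lowest, median, highest) at 1 h and 7.52, 7.88, 8.21, 8.47 and 8.77 at 24 h, a change of -0.87 ± 0.27. Its other tested probe sets had changes of 0.02 ± 0.09 and -0.07 ± 0.08. Gdi2, which recycles Rab proteins, read 9.81 to 10.77 at 1 h and 9.03 to 10.06 at 24 h on 1 probe set (-0.79 ± 0.27), but 0.05 ± 0.08 was the change of the other. Caprin1, an RNA-granule protein, had -0.68 ± 0.21 on 1 probe set and -0.02 ± 0.09 and -0.11 ± 0.08 on the others, and Ctnnb1, beta-catenin, had -0.59 ± 0.19 beside 0.32 ± 0.20 and 0.09 ± 0.09. With the Gapdh covariate the 4 probe sets with large changes read -0.19, -0.12, -0.14 and -0.13. Cct5, a subunit of the cytosolic chaperonin, differed from these in having both its probe sets lower, at -0.77 ± 0.24 and -0.41 ± 0.17, and at -0.42 and -0.30 with the covariate. Jun, an activity-regulated transcription factor gene, had -0.69 ± 0.23 on 1 probe set and -0.10 ± 0.16 on the other, and -0.26 and -0.18 with the covariate.

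The 34 gene lists, 22 of pathways and 12 of cell type markers, are described by their counts beside the same over all probe sets tested. In every list 0 members passed. Over all probe sets tested, 49.9% of changes were below 0, 4.07% were lower and 1.83% higher at an unadjusted p under 0.05, and each list's counts are to be read against these shares. Per gene the probe set of highest mean signal was used, and the median over all tested probe sets was 0.00.

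**Figure D3:**
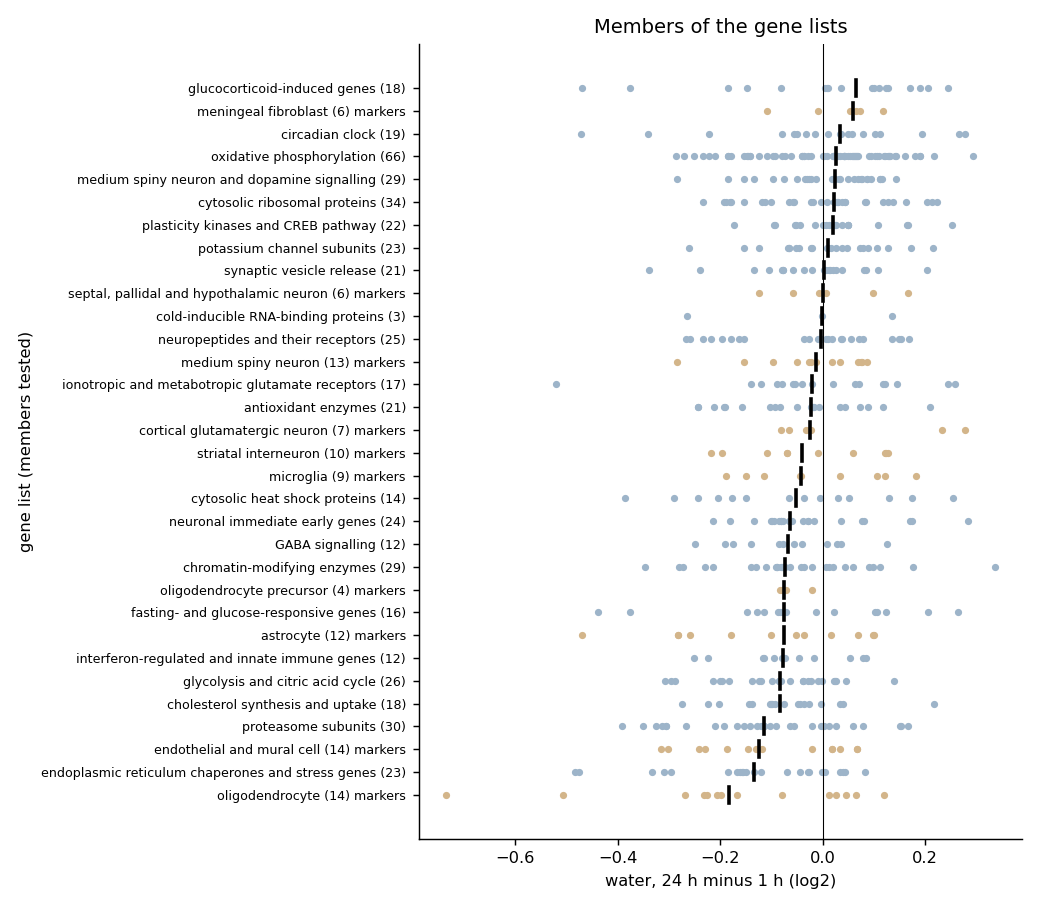
Each point is a tested member of a gene list (blue: pathways; tan: cell type markers), with its 24 h minus 1 h change on the x axis (log2), a black bar at the list's median and the number tested in brackets. Lists with 3 or more tested members are drawn; medians ran from -0.18 for oligodendrocyte markers to 0.07 for glucocorticoid-induced genes, and no member passed the test.

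Genes that report neuronal activity had a wide spread inside each group, and no difference between 1 h and 24 h passed. Of 24 immediate early genes tested, each by its probe set of highest mean, 6 had a change above 0 and 18 below (49.9% below over all tested). By these probe sets 0 reached an unadjusted p under 0.05 in either direction, and the median was -0.06. The Jun probe set of lower mean, given above, had -0.69 ± 0.23 (unadjusted p = 0.0041 in limma's moderated test), or -0.26 with the Gapdh covariate. Fos, the standard marker of recent activation, read 11.34, 11.88 and 12.30 (lowest, median, highest) at 1 h and 11.33, 11.36, 11.68, 11.72 and 12.46 at 24 h. The ranges coincide, and the change was -0.14 ± 0.23. Arc, a synaptic plasticity gene, had -0.21 ± 0.33, Egr1 -0.10 ± 0.24 and Junb -0.08 ± 0.20. Errors of this size leave room for changes in either direction.

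For some of these genes the 6 h arrays had a lower mean than both, with overlapping ranges. Nr4a3, an orphan nuclear receptor gene induced by activity, read 9.79, 10.98 and 11.55 (lowest, median, highest) at 1 h, 8.99, 9.73, 9.98, 9.99 and 10.18 at 6 h, and 10.21, 10.81, 11.21, 11.62 and 11.73 at 24 h. All the 6 h values lay under all the 24 h values but overlapped those at 1 h, while the 24 h and 1 h arrays overlapped and differed by 0.28 ± 0.36. The 6 h minus 1 h change was -1.06 on this Nr4a3 probe set, and -0.15 and -0.60 on the other tested ones. Of the Homer1 probe sets, which encode a synaptic scaffold, the one furthest apart at 6 h read 8.94 to 10.49 at 1 h, 7.34 to 8.74 at 6 h and 8.16 to 10.49 at 24 h, with a 6 h minus 1 h change of -1.76 and a 24 h minus 1 h change of -0.12 ± 0.42. Sgk1, a kinase gene that glucocorticoids induce, had changes of -0.53 at 6 h and 0.10 ± 0.17 at 24 h, both against 1 h. None of these 6 h differences passed the test, and the probe sets were picked after their values were seen.

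Clock genes did not separate the times either. Of 19 tested, 11 had a change above 0 and 8 below, with 0 higher and 1 lower at an unadjusted p under 0.05 (1.83% and 4.07% over all tested) and a median of 0.03. Per1, a repressor of the clock's negative arm, read 9.71, 10.04 and 10.42 (lowest, median, highest) at 1 h and 9.96, 10.04, 10.06, 10.07 and 10.24 at 24 h, the narrower 24 h arrays lying inside the 1 h range. Its change was 0.01 ± 0.14, beside 0.05 ± 0.12 for Per2, 0.11 ± 0.12 for the output gene Dbp and -0.08 ± 0.11 for Bmal1, the activator of the positive arm. Nr1d1, which encodes the repressor REV-ERB alpha, read 8.12 to 8.51 at 1 h and 8.36 to 8.73 at 24 h, with a change of 0.19 ± 0.11. The member at an unadjusted p under 0.05 was Csnk1e, a kinase that acts on PER proteins, at -0.34 ± 0.14, and it was -0.01 with the Gapdh covariate and -0.20 without array 31. Bhlhe40 had -0.47 ± 0.24 and 0.11 with the covariate, and Per3 had 0.27 ± 0.13 and 0.05. The labels give no clock hour for either group, so how far apart in the day the groups were collected is not known. A change of these genes over the day was therefore not tested.

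**Figure D4:**
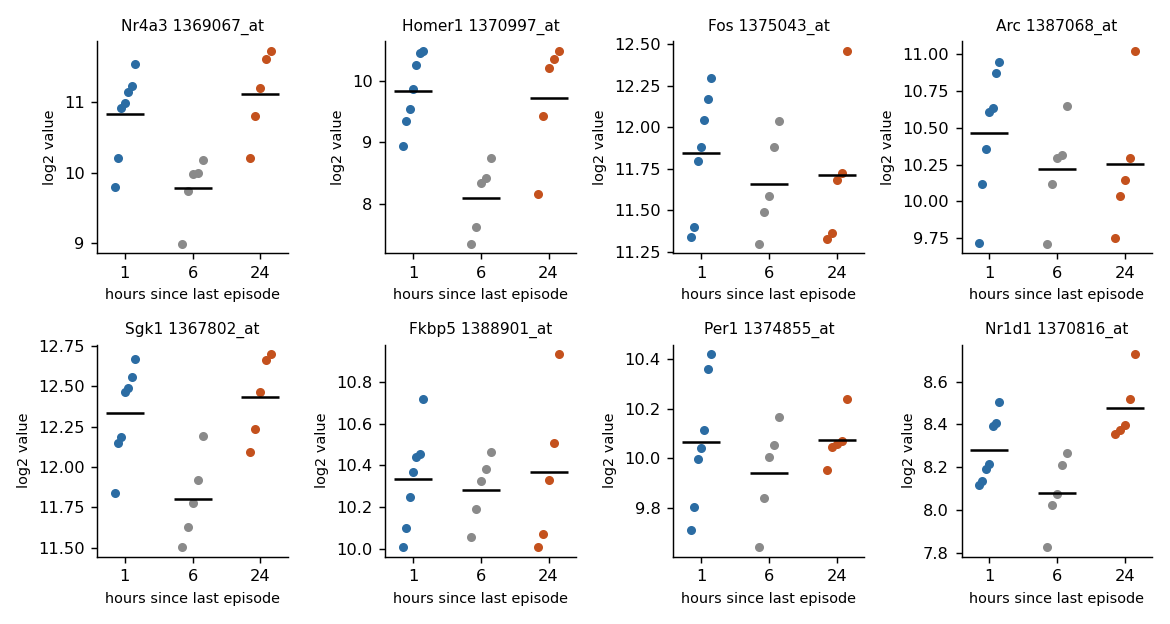
Log2 value (y axis, a separate scale per panel that does not start at 0) in each array of water rats at 1, 6 and 24 h since the last drinking episode, for 8 probe sets of activity, glucocorticoid and clock genes; points are drawn in order of value and bars are means. The 1 h and 24 h arrays overlap in every panel, and the 6 h arrays of Nr4a3, Homer1 and Sgk1 lie lower in the mean.

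Glucocorticoid-induced genes, which track stress hormone exposure, had 13 of 18 changes above 0 (50.1% over all tested) with a median of 0.07, 1 higher and 1 lower at an unadjusted p under 0.05. Fkbp5, the feedback regulator of the glucocorticoid receptor, read 10.01 to 10.72 at 1 h and 10.01 to 10.93 at 24 h, a change of 0.04 ± 0.16. A second tested Fkbp5 probe set, of lower mean signal, had -0.22 ± 0.16. Mt1, a metallothionein, had 0.19 ± 0.09 and Klf9 0.24 ± 0.16, while Gjb6 had -0.47 ± 0.23 and Ddit4 -0.38 ± 0.22. Without array 31 Klf9 read 0.14 and Ddit4 -0.20. The list's median was -0.01 with the Gapdh covariate.

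Genes that define the accumbens varied widely among arrays of 1 group, and none differed between the groups at an unadjusted p under 0.05. The 29 medium spiny neuron and dopamine signalling genes split 17 above and 12 below 0, with 0 at an unadjusted p under 0.05 and a median of 0.02. Drd1 and Drd2, the receptors of the direct and indirect pathway neurons, had changes of -0.01 ± 0.20 and -0.05 ± 0.23, and Ppp1r1b, the phosphatase inhibitor DARPP-32, had 0.09 ± 0.21. Penk and Pdyn, the opioid precursors of those neurons, had 0.02 ± 0.12 and -0.03 ± 0.17, and Tac1, which encodes substance P, had -0.15 ± 0.29. The mean level of the 13 medium spiny neuron markers ran from 11.50 to 12.41 over the 1 h arrays and from 11.73 to 12.30 over the 24 h arrays, a difference of -0.02 (exact permutation p = 0.905). The level of these markers varied more among the 1 h arrays (SD 0.32) than between the groups. Neuropeptides and their receptors split 12 above and 13 below 0 of 25, GABA signalling genes 4 and 8 of 12, and ionotropic and metabotropic glutamate receptors 8 and 9 of 17. Grm7, a presynaptic glutamate receptor, was the receptor gene with the largest change, 7.03 to 7.80 at 1 h and 6.45, 6.72, 6.93, 7.05 and 7.48 at 24 h (-0.52 ± 0.17), and it read -0.18 with the Gapdh covariate. The Grm7 mean at 24 h, 6.93, lay under the log2 limit of 7.09 of the filter on low signal. Synaptic vesicle genes split 11 and 10 of 21, plasticity kinases 15 and 7 of 22, and potassium channel subunits 13 and 10 of 23, where Kcnj3 was higher by 0.22 ± 0.10.

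Of the endoplasmic reticulum chaperones and stress genes, 18 of 23 tested members had a change below 0 (49.9% over all tested), with a median of -0.13, and 3 were lower and 0 higher at an unadjusted p under 0.05 (4.07% and 1.83% over all tested). No member passed, and the list itself was not tested. These proteins fold and check secreted and membrane proteins, and many of their genes are controlled through the endoplasmic reticulum stress response element, the motif CCAAT and CCACG with any 9 bases between them, which ATF6 binds together with NF-Y. The element was searched on both strands in RefSeq promoter windows of 300 bases (250 before to 50 after the start, build GRCr8). It was in 7 of the 18 tested list genes that have a window (38.9%) and in 22 of 33469 windows overall (0.0657%), and no other motif was searched. The first share is of genes and the second of windows. The list holds genes known for this response, so its higher share follows from how it was made and is not a result. The windows below are shown for the genes whose values follow, with the element in capitals and 15 bases on either side, 5' to 3' along the gene's strand; Calr is given as a member with the element and no lower reading.
Hspa5, chr3:38452958-38453006, plus strand, 43 bases before the start: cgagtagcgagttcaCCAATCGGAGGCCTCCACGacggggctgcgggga
Hsp90b1, chr7:23012436-23012484, minus strand, 176 bases before the start: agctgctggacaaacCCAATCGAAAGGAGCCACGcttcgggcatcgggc
Hsp90b1, chr7:23012332-23012380, minus strand, element in reverse, 72 bases before the start: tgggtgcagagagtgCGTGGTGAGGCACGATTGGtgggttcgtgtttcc
Creld2, chr7:121789224-121789272, plus strand, element in reverse, 145 bases before the start: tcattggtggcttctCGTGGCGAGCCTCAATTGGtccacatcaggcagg
Calr, chr19:40213120-40213168, plus strand, element in reverse, 232 bases before the start: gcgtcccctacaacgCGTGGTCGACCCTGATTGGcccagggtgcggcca

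Hspa5, the chaperone BiP that senses unfolded proteins, read 12.87, 13.10 and 13.24 (lowest, median, highest) at 1 h and 12.82, 12.82, 12.95, 12.96 and 13.03 at 24 h, a change of -0.17 ± 0.09. Its groups overlapped, but no 24 h array reached the median of the 1 h arrays. Hsp90b1, the chaperone GRP94 with 2 copies of the element in its window, read 12.37 to 12.70 at 1 h and 11.74, 11.82, 11.93, 12.36 and 12.51 at 24 h, a change of -0.48 ± 0.19. Pdia3, a disulfide isomerase, read 10.04 to 10.99 at 1 h and 9.93, 10.05, 10.08, 10.09 and 10.70 at 24 h, a change of -0.48 ± 0.19, while a second Pdia3 probe set gave 0.07 ± 0.08. Pdia4, of the same family, had -0.33 ± 0.14, and 1 high array of the 1 h group at 9.75 added to it. Creld2 had -0.15 ± 0.10 and Calr, the lectin chaperone calreticulin, 0.04 ± 0.07. The remaining genes with the element, Dnajc3, Xbp1 and Canx, had -0.16 ± 0.16, -0.03 ± 0.09 and 0.03 ± 0.08. The median change was -0.15 in the 7 genes with the element, 5 of them below 0, and -0.07 in the 11 with a window and no element, 8 below 0.

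The list's median slope on the Gapdh end difference was 0.00, with 11 of its 23 members negative, and its median change with the covariate was -0.09, with 4 members lower at an unadjusted p under 0.05. Single members moved both ways under the covariate. Hspa5 read -0.25, Creld2 -0.24 and Pdia3 -0.37, while Hsp90b1 read 0.03. In ethanol-drinking rats the list's median over the same interval was -0.04, beside -0.00 over all tested. In the amygdala of water rats the median was -0.05.

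Proteasome subunits had 22 of 30 members below 0 (49.9% over all tested), a median of -0.11, and 6 lower and 0 higher at an unadjusted p under 0.05 (4.07% and 1.83% over all tested). Psmb7, a catalytic subunit, read 11.93, 12.02 and 12.39 (lowest, median, highest) at 1 h and 11.23, 11.47, 11.92, 11.96 and 12.03 at 24 h, a change of -0.39 ± 0.14. The ATPase subunits Psmc3 and Psmc1 of the regulatory particle had -0.35 ± 0.14 and -0.27 ± 0.12. With the Gapdh covariate the list's median was -0.09 with 0 members lower at an unadjusted p under 0.05, and in ethanol-drinking rats it was -0.00. Glycolysis and citric acid cycle genes had 21 of 26 below 0 (49.9% over all tested) and a median of -0.08, and 5 were lower at an unadjusted p under 0.05 (4.07%). The 4 with the smallest p were Tpi1 at -0.31 ± 0.12, Pfkm at -0.30 ± 0.11, Dlst at -0.29 ± 0.11 and Idh3b at -0.18 ± 0.08. The median of the 26 was -0.04 with the covariate.

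Oxidative phosphorylation and ribosomal protein genes had medians near that of all tested, and lower medians under the covariate. Oxidative phosphorylation genes had 39 of 66 above 0 with a median of 0.03, and cytosolic ribosomal proteins 19 of 34 with a median of 0.02. Over all tested, 50.1% were above 0. Their median slopes on the Gapdh end difference were 0.25 and 0.29, and their medians with the covariate were -0.11 and -0.14. Of the 66 oxidative phosphorylation genes 5 were lower and 0 higher at an unadjusted p under 0.05 (4.07% and 1.83% over all tested). Among the lower ones were Ndufs3 of complex I at -0.23 ± 0.09, Sdhb of complex II at -0.27 ± 0.11 and Atp5pb of the ATP synthase at -0.21 ± 0.09.

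Markers of non-neuronal cells differed in level between arrays, and 0 of them passed. In bulk tissue fewer cells of a type and less RNA per cell cannot be told apart. Oligodendrocyte markers had 9 of 14 below 0 (49.9% over all tested) with a median of -0.18, and their mean level ran from 10.86 to 11.32 at 1 h and from 10.70 to 11.14 at 24 h (difference -0.17, exact permutation p = 0.107). Ugt8, which makes the galactolipid of myelin, had the largest change, 8.40 to 9.08 at 1 h and 7.21, 7.94, 7.99, 8.14 and 8.51 at 24 h (-0.74 ± 0.30), and Mal, a myelin proteolipid, had -0.51 ± 0.21. With the Gapdh covariate they read -0.11 and -0.18. Mbp, the abundant myelin basic protein message, had -0.20 ± 0.13, and Cnp and Sox10 had 0.07 ± 0.16 and 0.12 ± 0.15, so the list did not move as a block.

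Endothelial and mural markers had 9 of 14 below 0 (49.9% over all tested), a median of -0.12 and a mean level of 8.66 to 8.81 at 1 h against 8.57 to 8.78 at 24 h (difference -0.11, exact permutation p = 0.0265, adjusted p = 0.141 over 16 measures). Cldn5, the tight junction claudin of the blood-brain barrier, read 11.07, 11.23 and 11.38 (lowest, median, highest) at 1 h and 10.74, 10.81, 10.92, 10.99 and 11.06 at 24 h, without overlap, a change of -0.32 ± 0.11 and -0.18 with the covariate. Of the 5 members above 0, Rgs5 and Myl9, both of mural cells, had 0.07 ± 0.12 and 0.07 ± 0.16. Astrocyte markers had 8 of 12 below 0 (49.9% over all tested) and a median of -0.08, which was -0.21 with the mean of all probe sets of a gene, with mean levels of 11.77 to 12.05 at 1 h and 11.66 to 11.89 at 24 h (difference -0.11, exact permutation p = 0.072). Aldh1l1 and Mlc1 had -0.28 ± 0.11 and -0.26 ± 0.10, while Aqp4 and S100b had 0.10 ± 0.12 and 0.10 ± 0.11. Microglial markers differed by -0.01 in mean level (exact permutation p = 0.851), meningeal fibroblast markers by 0.03 and oligodendrocyte precursor markers by -0.06. Striatal interneuron, cortical glutamatergic and septal, pallidal and hypothalamic neuron markers differed by -0.02, 0.04 and 0.01. Of the choroid plexus and ependyma markers 2 were tested, Ttr at 0.05 and Prlr at 0.15, and the blood marker Hbb had -0.25 ± 0.17. Single arrays moved these values by over 1.5 times (Prlr 0.09 without array 33, Hbb -0.16 without array 30 and -0.38 without array 31).

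In ethanol-drinking rats, whose 21 arrays at these times are separate from those of the water rats, 0 probe sets passed between 24 h and 1 h (0% called, 2.80% at an unadjusted p under 0.05). Over the 18625 probe sets the changes of water and ethanol rats had the same sign in 65.7%, with Pearson r = 0.494 and Spearman rho = 0.460. The Gapdh end difference varied among the arrays of both, and its part in this likeness was not tested. Of the named genes, 7 of the 12 higher and 11 of the 12 lower had the same sign in ethanol rats, with smaller values: Snd1 -0.05 ± 0.05, Cav1 -0.13 ± 0.14, Psmd8 -0.15 ± 0.07 and Casq2 0.09 ± 0.07. The difference between water and ethanol rats in the 24 h minus 1 h change was tested across all probe sets, and 0 passed (0% called, 1.41% at an unadjusted p under 0.05).

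In the central amygdala of water rats 0 probe sets passed over the same interval (0% called, 1.56% at an unadjusted p under 0.05). The same sign was seen for 6 of the 12 higher and 2 of the 12 lower named genes, and for 9 and 5 with a term for the restart of the time order in the amygdala title numbers. Values without that term were, for example, 0.22 for Cav1 and 0.09 for Snd1. The test of the difference between regions passed for 0 probe sets (0% called, 4.63% at an unadjusted p under 0.05), and for 0 with that term (5.51%). The changes in the accumbens were therefore not shown to be particular to it.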

How the data were processed

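The deposited values are log2 expression values per probe set, made by the authors with RMA (background correction, quantile normalization and probe summarization in 1 step), per the submitters' processing notes; the version is not given in the sources used here, and they were used as deposited. Gene symbols came from the platform annotation: 20826 of 31042 probe sets without controls had 1 symbol, 436 several and 9780 none, and unnamed probe sets stayed in the fit. The 48 accumbens arrays were fitted with 1 mean per group (6 combinations of treatment and hour) in limma 3.58.1 in R 4.3.3 (lmFit, eBayes with trend), for the 18625 probe sets with a mean above the 40th percentile (log2 7.09). P-values were adjusted by Benjamini-Hochberg over all of them, and an adjusted p under 0.05 passed. Array and marker measures were compared by a two-sided exact permutation test over all splits, with 0.0013 the smallest p possible. Named genes were, in each direction, the 12 with the smallest p (1 symbol, 1 probe set per gene), and up to 4 members per list by smallest p. The members and lists were chosen with earlier results of these data known. The fit was tested on simulated data. Intensity depth is not defined for arrays; the number of arrays limits the precision. Alternatives were the filter, normalization, array weights, variance model, arrays in the fit, end-difference covariates and leaving out each array. The beta-actin covariate was chosen after seeing the data.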

Additional observations from a re-analysis of the deposited data

Results flagged for a closer look

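In groups of this size a sample that stands far from the others was looked for in 330 sets of values, and 22 were found; chance alone gives about 1 in 20. Array 31 of the 24 h group accounts for many of them. Its median correlation with the other accumbens arrays was 0.9901, against 0.9936 for the next lowest of its group. It read low for Rbbp5 (8.88), Csnk1e (9.1337), Hyou1 (8.6063), Dnaja1 (12.973) and Gabra2 (8.5134), and high for Kcnip3 (10.7639), Rps29 (14.5479) and Angptl4 (9.2338).

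Array 30 of the 24 h group, which had the lowest Gapdh end difference of that group, read high for Pdia3 (10.7013) and low for Sst (11.3752) and Prdx5 (11.5424). Array 32 read high for Prc1 (8.3452, against 7.3411 for the next) and Rpl11 (13.3168), and array 33 low for Kdm6b (8.7954).

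In the 1 h group, array 22 read high for Pdia4 (9.7533) and Mal (11.272) and low for Grin1 (10.8008), Syp (12.4746) and Slc18a3 (6.8982). Array 18 read high for Agfg1 (8.1886) and Sdhd (13.141).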

How the results depend on the processing

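The count of passing probe sets was 0 for water rats at 24 h against 1 h, and for the difference between water and ethanol rats, under every alternative run. The smallest adjusted p of the comparison ranged from 0.135 (without array 34 of the 24 h group) to 1.00 (with the Gapdh covariate); it was 0.140 with array weights, 0.331 with only the 12 arrays in the fit, 0.383 with only the 17 water arrays and 0.766 without the filter. The count at an unadjusted p under 0.05, 1098 in the report, was 2146 with array weights, 1749 with only the 12 arrays, 1790 with the 17 water arrays, 496 with the Gapdh covariate, 1138 with the beta-actin covariate, 1533 without the arrays of low correlation, 2015 of 31042 without the filter and 645 of 12417 with a filter at the 60th percentile. Leaving out each array in turn gave 616 to 1427 for this count and 185 to 345 for the difference between water and ethanol rats. The arrays of low correlation were all from ethanol rats: 33 at 1 h, 43 and 44 at 6 h, and 55 and 59 at 24 h. Array 31 of the 24 h water group was not among them, and the count without it was 616. Of the single-gene values, 48 moved by more than the spread between arrays and 0 that were called changed sign, since none was called; the cause was not tested. The median of the astrocyte markers was -0.21 with the mean of all probe sets of a gene, against -0.08. No paired analysis was possible because the 24 h and 1 h groups share no replicate numbers in the labels.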

Other observations

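Several pathways that vary with feeding, temperature or immune state were also measured. Cholesterol synthesis and uptake genes had 15 of 18 members below 0 at 24 h (49.9% over all tested) with a median of -0.08 and 0 at an unadjusted p under 0.05; Insig1, the sterol sensor's retention protein, had -0.27 ± 0.18 and Dhcr7 0.22 ± 0.14, which was 0.07 without array 31 and 0.12 without array 20. In ethanol-drinking rats the list's median was 0.02. Fasting- and glucose-responsive genes split 6 above and 10 below 0 of 16, with Cpt1a, the gate of mitochondrial fatty acid import, at -0.44 ± 0.19. Cytosolic heat shock proteins split 5 and 9 of 14, with Hspa4 at -0.39 ± 0.17, and of 3 cold-inducible RNA-binding protein genes Rbm3 had 0.14 ± 0.12 and Cirbp 0.00 ± 0.12.

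Antioxidant enzymes had 15 of 21 below 0 (49.9% over all tested), with Prdx6 at -0.24 ± 0.10. Interferon-regulated and innate immune genes had 9 of 12 below 0, beside the same share, with Bst2 at -0.25 ± 0.09. Chromatin-modifying enzymes had 19 of 29 below 0, also beside 49.9%; Tet1, which oxidizes methylcytosine, had -0.35 ± 0.16, Smarca4, an ATPase of chromatin remodelling, -0.27 ± 0.11, and Kdm6b, a histone demethylase, 0.34 ± 0.14, or 0.21 without array 22. No member of these lists passed the test.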
